A study of Mus musculus with 3 samples.

Results

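The data described here are the gene expression levels of mouse hepatic stellate cells (HSCs) that received no stimulus. The HSCs were isolated by Nycodenz gradient from livers of wild-type female C57BL/6 mice more than 24 weeks old, starved for 24 h in medium with 0.2% FBS, and left untreated for a further 24 h. They form 1 of the 3 conditions of the series, and are given by 1 of its 3 sample records. The other conditions carry a growth factor and are not described. All 31447 rows of the table that holds the untreated level were kept and ranked. How the authors chose those rows is not known here. Per the protocol in the labels, an isolation typically drew on a pair of mice, and the cells are those of the light fraction of the gradient, without sorting on a marker. The table gives 1 mean level per gene in TPM, a measure of the share of all transcripts that belong to a gene. TPM is scaled to the length of the gene and the total of the sample. On that basis levels of different genes are set side by side below. The RNA was amplified before sequencing, and any effect of this on ratios between genes was not examined. No value per library was given in the table, so no level below has an error and no difference between genes was tested. The methods give an approximate read number per sample, but the reads behind each value cannot be recovered from TPM.

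HSCs lie between the hepatocytes and the sinusoidal endothelium and store vitamin A as retinyl esters in lipid droplets. On liver injury they lose these droplets, take on α-smooth muscle actin (αSMA) and lay down fibrillar collagen as myofibroblasts, the main scar-forming cells of the liver. Plating on plastic starts part of that change, so that the first days in culture lie between the quiescent and the activated cell.

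The untreated HSCs were rich in ferritin, stress-defense enzymes, actin-binding proteins and 1 secreted proteoglycan, decorin. The decorin gene *Dcn* was listed at 7021 TPM and was the seventh of all rows. Of the 31447 rows, 21084 (67.0%) were at 1 TPM or more, 9665 (30.7%) at 10 or more, 1758 (5.59%) at 100 or more and 104 (0.331%) at 1000 or more, and 1919 (6.10%) were listed at 0. The 88 most abundant genes held 25% of all TPM and 572 genes held 50%, with 10.1% in the 10 most abundant and 26.3% in the 100 most abundant. Protein-coding genes had a median of 6.10 TPM. Of them, 42.1% were at 10 TPM or more and 7.76% at 100 or more, which are the background for the counts that follow.

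**Figure D1:**
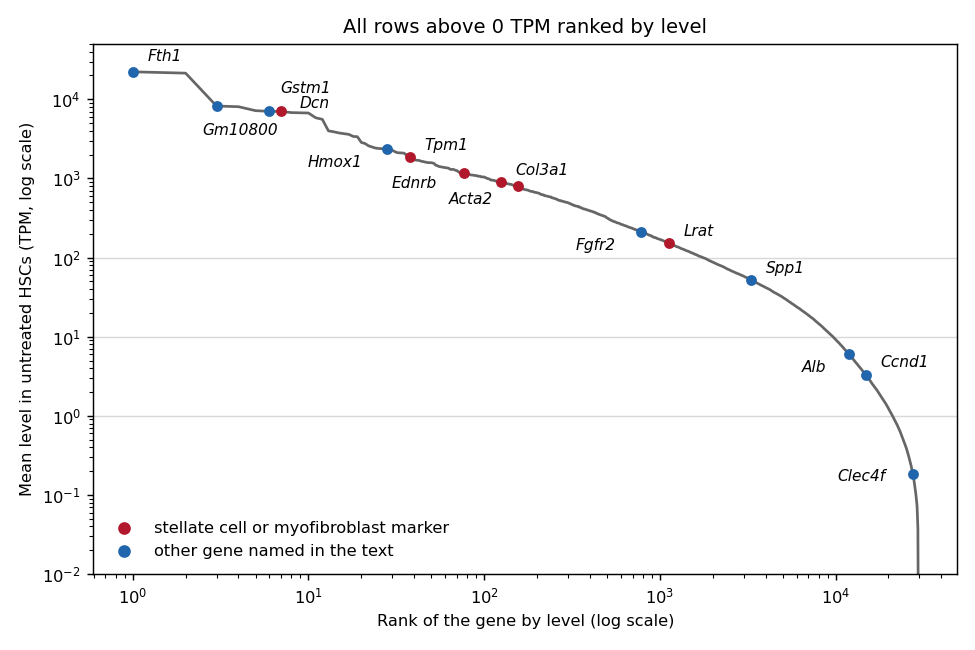
Level of every row above 0 TPM in untreated HSCs (y axis, TPM, log scale) against its rank (x axis, log scale), with the line joining all rows and named genes as points. *Dcn* at 7021 TPM sits in the upper plateau, *Lrat* at 151 TPM on the slope and the hepatocyte gene *Alb* at 6.03 TPM past the bend.

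The most abundant genes were the ferritin heavy and light chains, which store iron. *Fth1* was listed at 22254 TPM and *Ftl1* at 21402 TPM, a ratio of 1.04, and these genes alone held 4.37% of all TPM. *Ubb*, a ubiquitin gene, was listed at 2762 TPM. The detoxifying glutathione transferases *Gstm1* (7045 TPM) and *Gstp1* (3990 TPM) and the peroxide-reducing *Prdx1* (5581 TPM) were above every actin gene. *Esd*, an esterase, was listed at 3877 TPM. The 13 protein-coding genes of the mitochondrial genome ranged from 372 to 7184 TPM and held 3.38% of the total, led by the cytochrome oxidase subunit *mt-Co3* (7184 TPM) and the ATP synthase subunit *mt-Atp6* (6743 TPM). The MHC class I chain *H2-D1* was at 3367 TPM and its partner *B2m* at 5841 TPM. Others among the 30 most abundant were the actin-binding *Tmsb4x* (3749 TPM) and *Pfn1* (2581 TPM), the cyclophilin *Ppia* (2850.1 TPM), the calcium-binding *S100a11* (2392 TPM), the antiviral membrane proteins *Ifitm2* (2378 TPM) and *Ifitm3* (2267 TPM), and the elongation factor *Eef1a1* (2330.1 TPM). The abundant genes were short ones. The longest transcript of the 100 most abundant protein-coding genes had a median of 1385 nt, against 2953 nt over all protein-coding genes.

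Several rows in this upper range had sequence that other genes share or a name foreign to liver, and their levels are uncertain. Only some of them were searched for copies and are described here. Pseudogene rows of any kind numbered 9137 and held 6.01% of all TPM. *Gm10800*, a predicted gene at chr2:98666547-98667301 (GRCm38, minus strand), was listed at 8222 TPM. Its transcript matched 12 other genes at 90% identity or more over at least 200 nt, and the 11 of them in the table brought the summed level to 13808 TPM. *Olfr1033*, annotated as an olfactory receptor, was listed at 6711 TPM, while *Olfr1032*, the only gene with matching sequence, was at 0.0579 TPM. *AC109138.7*, a predicted gene at 1985 TPM, shares 313 nt at 100% identity with the cytokine gene *Clcf1* (6.32 TPM). *Gm29216*, a pseudogene at chr1:24615706-24616197 (minus strand), was listed at 6789 TPM and its mitochondrial relative *mt-Co1*, a cytochrome oxidase subunit, at 3669 TPM. Over 483 aligned nt these transcripts differ at 1 base. A stretch of 60 nt around that base is shown from the GENCODE M21 transcripts of GRCm38, 5′ to 3′, to make plain how little sequence could assign a read to one or the other, with the differing base in capitals.
Gm29216: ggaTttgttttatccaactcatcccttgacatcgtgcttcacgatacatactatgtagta
mt-Co1: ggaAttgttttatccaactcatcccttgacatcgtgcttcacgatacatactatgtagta
The summed level of *Gm29216* and the genes that match it was 10465 TPM. How reads were shared out between such copies is not known here.

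The identity of the cells was described by 6 marker genes of HSCs and myofibroblasts, all of which were at 100 TPM or more. *Dcn* (chr10:97479609-97518143, plus strand) encodes decorin, a small proteoglycan that binds collagen fibrils and TGFβ, and stood at 7021 TPM. *Tpm1* (chr9:67022590-67049406, minus strand), a tropomyosin of actin filaments, was at 1873 TPM, the 38th row. *Ednrb* (chr14:103814625-103844402, minus strand), the endothelin receptor type B, was at 1156 TPM. The fibrillar collagen gene *Col3a1* (chr1:45311538-45349706, plus strand) was at 893 TPM. *Acta2* (chr19:34241090-34255590, minus strand), which encodes αSMA and marks the activated cell, was at 796 TPM. *Lrat* (chr3:82892579-82903973, minus strand), the enzyme that esterifies retinol for storage and marks the quiescent cell, was at 151 TPM. Genes of the storing and of the contractile state were thus present in the same mean, with *Acta2* at 5.27 times the level of *Lrat*.

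A longer list of 32 stellate cell genes, which again holds *Dcn*, *Ednrb* and *Lrat*, was also high. The lists were chosen with earlier results of these data known, so these counts describe the cells and do not test their identity. At 10 TPM or more there were 28 of the 32, and 13 were at 100 or more, with a median of 75.7 TPM against 6.10 for all protein-coding genes. After the levels had been seen, the 1404 olfactory and vomeronasal receptor genes, which belong to sensory neurons, were taken as a reference for the low levels a gene can show in these data without a role in liver. Their median was 1.19 TPM, 7.83% were at 10 TPM or more, and their 95th percentile was 13.4 TPM. Of the 32 stellate cell genes, 27 lay above that percentile. Below *Dcn* and *Ednrb*, the list was led by secreted products: *Ecm1*, a matrix protein, at 1135 TPM, *Cxcl12*, the chemokine that binds CXCR4, at 951 TPM, and *Rspo3*, an enhancer of Wnt signaling, at 417 TPM. The metalloreductase *Steap4* was at 389 TPM and *Reln*, the matrix protein reelin, at 208 TPM. The intermediate filament gene *Des* (desmin) stood at 148 TPM, *Bmp5* at 137 TPM, the oxygen-binding *Cygb* at 125 TPM, *Hgf*, the hepatocyte growth factor, at 115 TPM and the extracellular superoxide dismutase *Sod3* at 105 TPM.

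The transcription factors of the list were all under 100 TPM. *Gata4*, a factor that HSCs share with sinusoidal endothelium, was at 96.8 TPM and *Tcf21*, a mesenchymal factor, at 55.4 TPM, while *Lhx2* (14.8 TPM) and *Hand2* (10.5 TPM) were near the 95th percentile of the sensory receptors. The collectin *Colec11* was at 96.2 TPM and its partner *Colec10* at 16.6 TPM. *Abcc9*, a potassium channel subunit, stood at 81.9 TPM, the PDGF receptor gene *Pdgfrb* at 66.3 TPM, the parathyroid hormone receptor gene *Pth1r* at 61.9 TPM, the ectonucleotidase *Nt5e* at 53.3 TPM and the G protein regulator *Rgs5* at 40.7 TPM. The genes from *Colec11* to *Rgs5* were all above the reference, *Colec10* the least, whereas *Hand2* was below it. The TGFβ pseudoreceptor *Bambi* (25.6 TPM), the hedgehog-binding *Hhip* (18.8 TPM) and the receptor for vasoactive intestinal peptide *Vipr1* (14.4 TPM) were also above the reference. The members under 10 TPM were *Angptl6* (7.89 TPM), *Adamtsl2* (3.28 TPM), the neurotrophin receptor *Ngfr* (2.79 TPM) and *Gfap*, an intermediate filament gene used to mark quiescent HSCs, at 1.43 TPM.

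**Figure D2:**
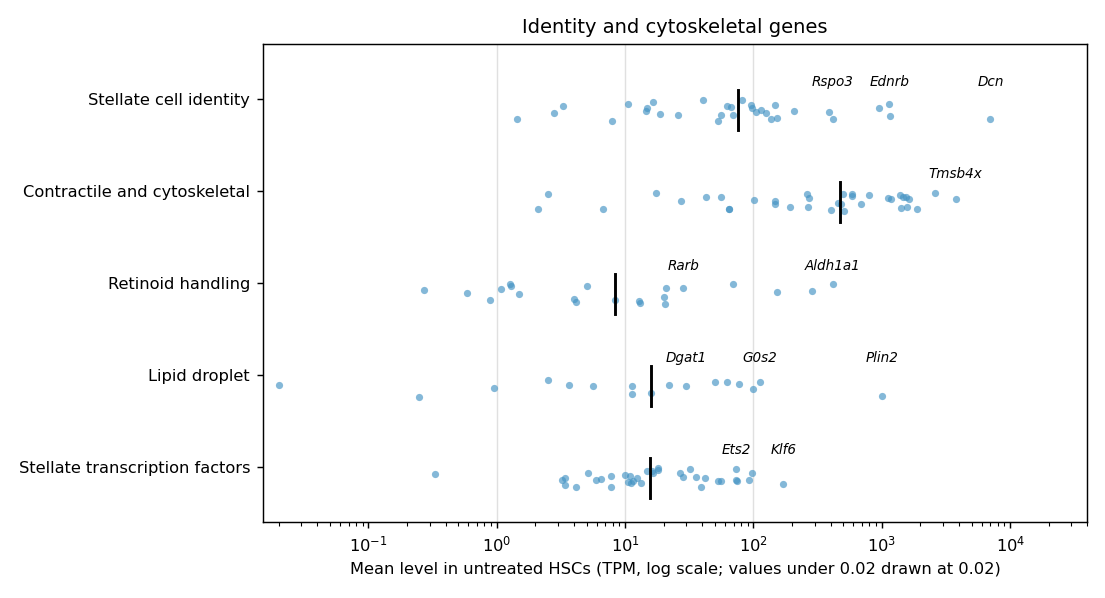
Level of each member of 5 gene lists in untreated HSCs (x axis, TPM, log scale), 1 point per gene, with a black bar at the median of the list and a few members labelled. The contractile and cytoskeletal list has a median of 469 TPM and the stellate cell list one of 75.7 TPM, to the right of the retinoid, lipid droplet and transcription factor lists.

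Genes of the actin cytoskeleton were high as a group. Of 36 contractile and cytoskeletal genes, 33 were at 10 TPM or more and 27 at 100 or more, with a median of 469 TPM. Besides *Tmsb4x*, *Pfn1* and *Tpm1*, the list was led by *Tpm4* (1635 TPM), the myosin light chain *Myl6* (1568 TPM) and cofilin, *Cfl1* (1540 TPM). *Tagln* (transgelin), which binds actin in smooth muscle and myofibroblasts, stood at 1408 TPM, above *Acta2* itself. The smooth muscle light chain *Myl9* was at 505 TPM and vimentin, *Vim*, at 453 TPM. Other genes of contractile smooth muscle were uneven. Smoothelin, *Smtn*, was at 64.7 TPM and the myosin kinase *Mylk* at 56.0 TPM. Calponin 1, *Cnn1*, was at 2.10 TPM, *Lmod1* at 2.52 TPM, the smooth muscle actin *Actg2* at 6.73 TPM and the smooth muscle myosin *Myh11* at 27.2 TPM. *Acta2* was thus 379 times the level of *Cnn1*, although both are read as smooth muscle genes. *Cnn1* was below the reference of the sensory receptor genes (13.4 TPM), so the size of this ratio is uncertain.

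The retinoid genes were led by enzymes that convert and store retinol. Of 21 genes, 10 were at 10 TPM or more, with *Aldh1a1*, which makes retinoic acid from retinal, at 413 TPM and *Dhrs3*, which returns retinal to retinol, at 286 TPM. *Lrat* came next, and the retinoic acid receptor *Rarb* (28.4 TPM) and the retinal reductase *Rdh11* (20.9 TPM) were lower. *Stra6*, a retinol uptake receptor, was at 5.01 TPM and the plasma carrier *Rbp4*, a product of hepatocytes, at 1.29 TPM. Lipid droplet genes were dominated by 1 coat protein. *Plin2* was listed at 1002 TPM, 66.6% of the summed level of 17 genes, of which 11 were at 10 TPM or more. The lipase regulators *G0s2*, an inhibitor, and *Abhd5*, an activator, were at 111 and 98.4 TPM, beside 50.1 TPM for the lipase *Pnpla2* on which both act. *Hilpda*, also a lipase inhibitor, was at 76.4 TPM and the coat protein *Plin3* at 62.4 TPM.

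Among 36 transcription factors of HSCs and fibroblasts, 25 were at 10 TPM or more and 1 at 100 or more. This was *Klf6*, a zinc finger factor known from activated HSCs, at 170 TPM. The ETS factors *Ets1* and *Ets2* were at 91.8 and 73.9 TPM, *Zeb2* at 73.3 TPM and the forkhead factor *Foxf1* at 72.5 TPM. Of 18 immediate early genes, 13 were at 10 TPM or more, led by *Ier3* (278 TPM), the phosphatase *Dusp1* (177 TPM) and *Myc* (163 TPM). The AP-1 subunits were uneven: *Fosl1* was at 90.1 TPM, *Jun* at 69.9 TPM and *Junb* at 65.4 TPM, while *Fos* was at 4.25 TPM. Of 35 cell cycle genes, 16 were at 10 TPM or more. The cyclin-dependent kinase inhibitor *Cdkn1a* (p21) led with 412 TPM, followed by *Cdk4* (258 TPM) and the D-type cyclins *Ccnd2* (175 TPM) and *Ccnd3* (74.1 TPM). The third D-type cyclin, *Ccnd1*, was at 3.32 TPM, and the proliferation marker *Mki67* at 2.17 TPM.

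Stress-defense genes had the highest summed level of the lists examined. The 34 genes for iron storage, redox balance, chaperones and metal binding summed to 6.86% of all TPM, with 30 at 100 TPM or more. The ferritin genes *Fth1* and *Ftl1* alone held 4.37%, and without them the list would fall below the contractile and cytoskeletal list (2.62%). Beyond the ferritins and *Prdx1*, the highest were *Sqstm1* (2370 TPM), a cargo receptor of autophagy, *Hmox1* (2332 TPM), the inducible heme oxygenase, and *Prdx6* (2109 TPM). The quinone reductase *Nqo1* (886 TPM), the glutathione synthesis subunit *Gclm* (549 TPM), sulfiredoxin *Srxn1* (527 TPM), thioredoxin reductase *Txnrd1* (396 TPM) and the metallothioneins *Mt1* (953 TPM) and *Mt2* (304 TPM) belong to the same group. Many genes of this kind are known targets of the factor NRF2, which binds TGACNNNGC. This motif was searched on both strands of RefSeq promoters (GRCm38.p6), from 250 bases before to 50 after the start of each promoter entry. A gene counted if any of its entries held a match. The motif was found in 5 of 13 antioxidant, iron and metal genes with a promoter entry (38.5%), a subset picked by function after the levels had been seen, and in 7 of 28 genes of the whole list (25%). It was found in 22.7% of the 200 most abundant genes with an entry, in 16.8% of genes at 10 TPM or more and in 13.99% of all 27025 genes with an entry. The sites of the 5 genes are shown because these are the promoters behind the subset's count, plus strand of the chromosome, with the match in capitals, printed as its reverse complement where it lies on the minus strand. Its letters can hold the AP-1 site TGACTCA, as in the first and last of them. The *Txnrd1* site belongs to a start within the gene, which begins at chr10:82833951.
Prdx1 (chr4:116685450-116685490): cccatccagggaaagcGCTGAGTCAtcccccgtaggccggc
Gclm (chr3:122245407-122245447): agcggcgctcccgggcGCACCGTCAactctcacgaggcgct
Srxn1 (chr2:152105536-152105573): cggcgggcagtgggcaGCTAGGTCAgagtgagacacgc
Txnrd1 (chr10:82859098-82859138): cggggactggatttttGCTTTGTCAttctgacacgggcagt
Mt2 (chr8:94172523-94172563): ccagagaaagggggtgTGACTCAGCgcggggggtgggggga
A match is a run of letters and not a shown binding site, and sites outside the stretch searched were not looked for. The shares were not tested against each other, and whether NRF2 acts on these genes in the untreated HSCs was not tested. The lysosome was a further abundant system, with all 20 of its listed genes at 10 TPM or more, led by the tetraspanin *Cd63* (2498 TPM), the proteases *Ctsb* (2184 TPM) and *Ctsd* (1600 TPM) and *Psap* (1164 TPM), a precursor of lipid-degrading cofactors. Of 16 glycolysis genes, 13 were at 10 TPM or more, with *Pkm* at 1613, *Aldoa* at 1106 and *Gapdh* at 1033 TPM.

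*Dcn* was the most abundant gene of the secreted matrix of untreated HSCs. Collagen chains, proteoglycans and matrix glycoproteins together counted 125 genes, of which 59 were at 10 TPM or more and 20 at 100 or more, and they held 1.76% of all TPM. Among 44 collagen chains, 15 were at 10 TPM or more. *Col3a1* led with 893 TPM, ahead of the basement membrane chains *Col4a1* (444 TPM) and *Col4a2* (145 TPM) and the fibril-associated *Col14a1* (142 TPM). The type I chains, the bulk of mature scar collagen, were lower, with *Col1a2* at 68.7 TPM and *Col1a1* at 52.4 TPM. *Col3a1* was thus 12.99 times *Col1a2* and 17.1 times *Col1a1*. The genes *Col4a1* and *Col4a2* encode chains of the same trimer and differed by a ratio of 3.05.

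The other proteoglycans were far below *Dcn*, which held 82.3% of the summed level of 21 genes. Its relatives of the small leucine-rich family were the next in order, biglycan *Bgn* at 573 TPM, *Prelp* at 425 TPM and lumican *Lum* at 397 TPM, with 12.3 times more *Dcn* than *Bgn*. The other members at 10 TPM or more lay between 21.6 and 35.6 TPM, among them *Ogn* (35.6 TPM) and versican *Vcan* (23.4 TPM). Of 60 matrix glycoproteins, 37 were at 10 TPM or more. The collagen-binding *Sparc* (1223 TPM), *Igfbp7* (1149.6 TPM) and *Ecm1* led, followed by *Ctgf* (720 TPM) and *Cyr61* (418 TPM), secreted regulators of the CCN family, and *Emilin1* (259 TPM). Fibronectin, *Fn1*, was at 62.3 TPM, osteopontin, *Spp1*, at 52.1 TPM, periostin, *Postn*, at 19.9 TPM, elastin, *Eln*, at 6.32 TPM and matrix Gla protein, *Mgp*, at 0.164 TPM. The leading genes for folding collagen stood above those of the lysyl oxidases that cross-link it. The prolyl hydroxylase subunits *P4hb* (713 TPM) and *P4ha1* (164 TPM), the cyclophilin *Ppib* (506 TPM) and the collagen chaperone *Serpinh1* (446 TPM) were all at 100 TPM or more, against 68.9 TPM for *Loxl2*, the highest of the lysyl oxidases, and 4.73 TPM for *Lox*. Other prolyl hydroxylase genes, *P4ha2* (44.3 TPM) and *P3h1* (22.3 TPM) among them, were below *Loxl2*.

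**Figure D3:**
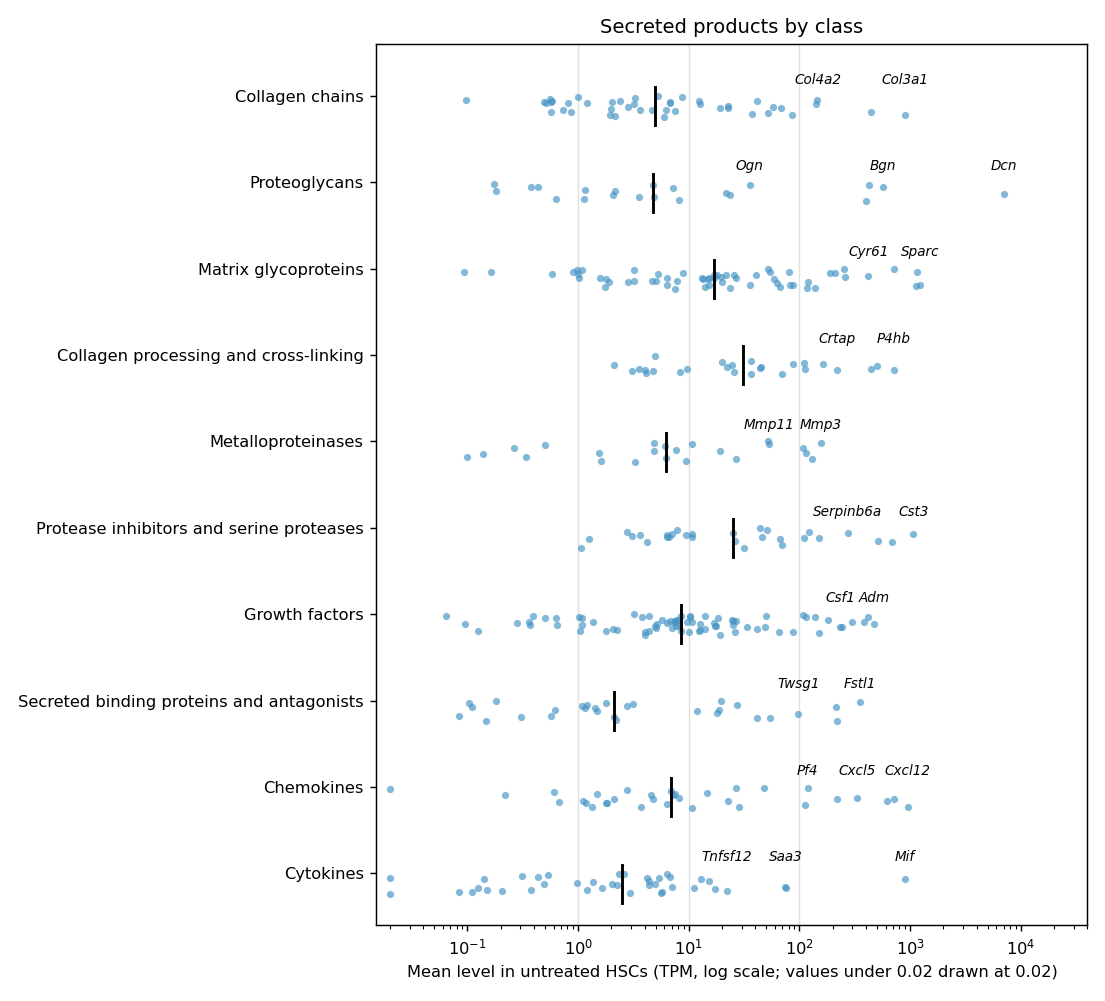
Level of each gene of 10 classes of secreted products and their processing in untreated HSCs (x axis, TPM, log scale), 1 point per gene, with a black bar at the median of the class and a few members labelled. *Dcn* at 7021 TPM stands apart, and *Col3a1* leads the collagens at 893 TPM.

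The leading genes of matrix-degrading enzymes were below those of protease inhibitors. Of 23 metalloproteinases, 9 were at 10 TPM or more, with stromelysin *Mmp3* at 156 TPM, the membrane-bound *Mmp14* at 131 TPM, *Adamts1* at 115 TPM, macrophage elastase *Mmp12* at 107 TPM, *Mmp11* at 53.2 TPM and gelatinase *Mmp2* at 52.1 TPM. The inhibitors were led by cystatin C, *Cst3*, at 1065 TPM and *Serping1*, which inhibits the first complement component, at 686 TPM. Of the metalloproteinase inhibitors, *Timp3* was at 509 TPM and *Timp1*, a product typical of activated HSCs, at 31.7 TPM, a ratio of 16.1. The complement component *C4b*, in the same list, was at 121 TPM.

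Growth factors were led by factors that act on vessels, Wnt signaling and macrophages. Of 76 genes, 36 were at 10 TPM or more and 11 at 100 or more. The vasodilator adrenomedullin, *Adm*, was at 472 TPM and *Rspo3* at 417 TPM. *Pros1*, the anticoagulant protein S and a ligand of TAM receptors, was at 386 TPM, the chemoattractant chemerin, *Rarres2*, at 241 TPM and *Csf1*, the macrophage growth factor, at 233 TPM. *Gdf2*, which encodes BMP9, stood at 107 TPM. The TGFβ genes were lower, with *Tgfb3* at 64.8 TPM, *Tgfb2* at 10.3 TPM and *Tgfb1* at 7.63 TPM. *Tgfb3* was thus 8.49 times *Tgfb1*, a ratio of uncertain size because *Tgfb1* was below the reference of the sensory receptor genes (13.4 TPM). *Fgf18* itself was listed at 0.394 TPM, under the median of the sensory receptor genes. Of the secreted binding proteins, 11 of 29 were at 10 TPM or more, led by *Fstl1* (350 TPM), the decoy receptor osteoprotegerin, *Tnfrsf11b* (218 TPM), and the Wnt antagonist *Frzb* (214 TPM).

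Some chemokines for monocytes and neutrophils were abundant, whereas classical inflammatory cytokines were not. Of 33 chemokine genes, 13 were at 10 TPM or more and 7 at 100 or more. The median of the class was 6.95 TPM, close to 6.10 TPM for all protein-coding genes, so the high levels were those of some members. Behind *Cxcl12* came the monocyte attractants *Ccl7* (719 TPM) and *Ccl2* (621 TPM), the neutrophil attractants *Cxcl5* (332 TPM) and *Cxcl1* (218 TPM) and *Pf4* (119 TPM). Of 40 cytokine genes, 8 were at 10 TPM or more and 1 at 100 or more, the constitutive *Mif* at 899 TPM. The acute phase genes *Saa3* (74.9 TPM) and *Lcn2* (74.1 TPM) followed, and *Il6* was at 7.04 TPM, *Il1b* at 2.01 TPM and *Tnf* at 0.431 TPM.

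Receptor genes held less of the total than the secreted products, of which 170 of 380 genes were at 10 TPM or more with 3.35% of all TPM. Over all classes 114 of 254 receptor genes were at 10 TPM or more and 25 at 100 or more, holding 1.04% of all TPM. Their median was 7.14 TPM, close to 7.48 TPM for the secreted products. The secreted set is larger, and *Dcn* alone held 0.702% of all TPM. *Ednrb* was the highest of them and stood at 23.6 times the endothelin receptor type A, *Ednra* (48.9 TPM). Other G protein-coupled receptors at 100 TPM or more were *P2ry14* (417 TPM), a receptor for UDP-glucose, *Calcrl* (247 TPM), the receptor through which adrenomedullin acts, *Agtr1a* (208 TPM), the angiotensin II receptor, and *S1pr3* (113 TPM), a sphingosine phosphate receptor. Apart from *P2ry14*, these receptors bind vasoactive or lipid ligands. Of the 68 genes of the class, 23 were at 10 TPM or more.

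Of 45 receptor tyrosine kinases, 19 were at 10 TPM or more. *Axl*, the TAM receptor for GAS6, led with 339 TPM. Among the FGF receptors, *Fgfr2* was at 212 TPM and *Fgfr1* at 39.5 TPM, a ratio of 5.35, while *Fgfr3* (1.99 TPM), *Fgfr4* (0.121 TPM) and the FGF21 co-receptor *Klb* (0.610 TPM) were under the 95th percentile of the sensory receptors. The collagen receptor *Ddr2* was at 98.5 TPM. The PDGF receptors were close to each other, with *Pdgfra* at 73.2 TPM and *Pdgfrb* at 66.3 TPM. The TGFβ receptors *Tgfbr1* (54.8 TPM) and *Tgfbr2* (38.5 TPM) were below their co-receptors endoglin, *Eng* (247 TPM), and betaglycan, *Tgfbr3* (96.3 TPM). The activin receptor *Acvr2a* was at 37.0 TPM.

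**Figure D4:**
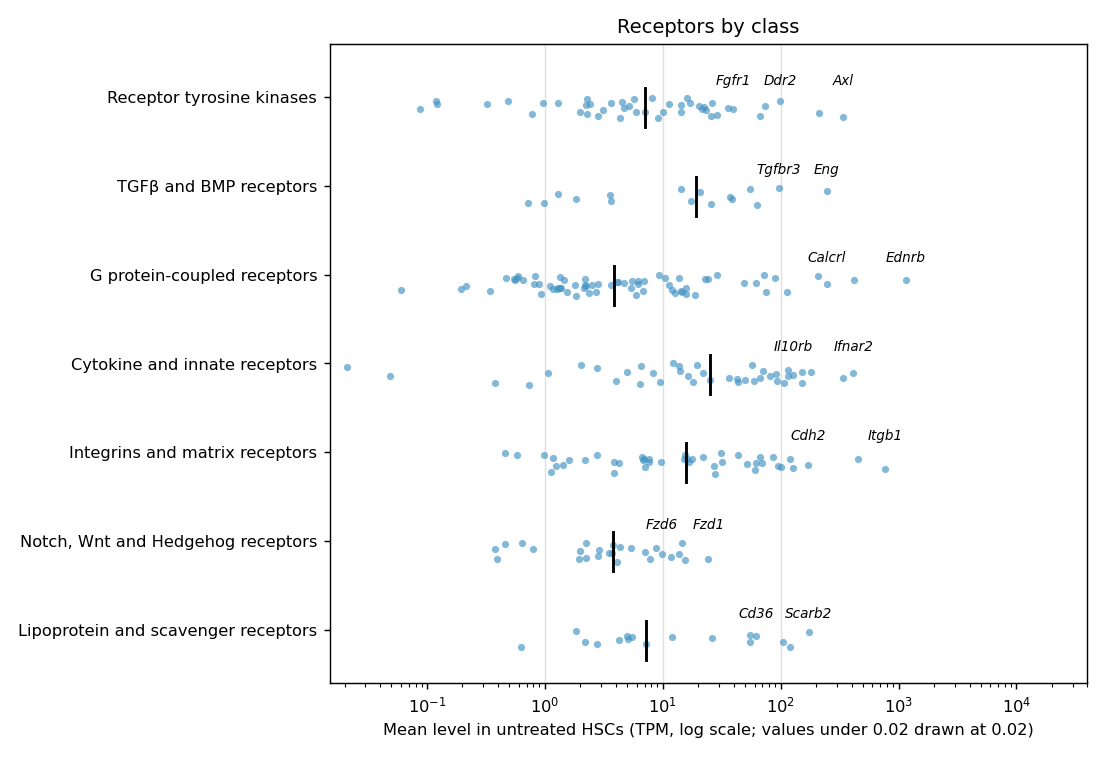
Level of each receptor gene in untreated HSCs by class (x axis, TPM, log scale), 1 point per gene, with a black bar at the median of the class and a few members labelled. *Ednrb* at 1156 TPM and *Itgb1* at 766 TPM are the highest points, and no Notch, Wnt or Hedgehog receptor is above 24.3 TPM.

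Cytokine and innate receptors had the largest share of members present, 28 of 41 at 10 TPM or more, with a median of 25.03 TPM. The interferon receptor chain *Ifnar2* was at 412 TPM, *Il6st* (gp130), the shared signaling chain of the IL-6 family, at 338 TPM, the TWEAK receptor *Tnfrsf12a* at 181 TPM, the TNF receptor *Tnfrsf1a* at 153 TPM and *Il11ra1* at 150 TPM. Of 44 integrins and other matrix receptors, 24 were at 10 TPM or more. The integrin β1 chain *Itgb1* was at 766 TPM, 8.02 times *Itgav* (95.6 TPM), and was followed by *Cd47* (454 TPM), a receptor for thrombospondin, and N-cadherin, *Cdh2* (171 TPM). *Cd44*, a receptor for hyaluronan and osteopontin, was at 21.9 TPM. Notch, Wnt and Hedgehog receptors were low, with 5 of 26 at 10 TPM or more and the highest, *Fzd1*, at 24.3 TPM. Of the lipoprotein and scavenger receptors, *Scarb2* (174 TPM), *Lrp1* (119 TPM) and *Scarb1* (105 TPM) led 17 genes.

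Markers of other liver cells were mostly low, and most of those at 100 TPM or more were endothelial or macrophage-associated, the others being *Ly6a*, *Mustn1* and *Pf4*. In all 51 of 235 such genes were at 10 TPM or more and 12 at 100 or more, with a median of 2.70 TPM. The methods of the paper describe such isolations as largely but not wholly HSCs, judged by autofluorescence. All levels given here, those of receptors and secreted products included, are thus levels of the whole preparation. In a bulk sample, fewer cells of a type and less RNA per cell cannot be told apart. Hepatocyte genes had a median of 1.63 TPM, near that of the sensory receptor genes. Of 30, the only ones at 10 TPM or more were *Ass1* of the urea cycle (49.1 TPM), the iron carrier *Trf* (31.5 TPM) and *Cyp7a1*, the rate-limiting enzyme of bile acid synthesis (17.8 TPM). Albumin, *Alb*, was at 6.03 TPM, *Apoa1* at 3.28 TPM and *Ttr* at 1.75 TPM, so that *Dcn* was 1164 times *Alb*. The size of this ratio is uncertain, because *Alb* was below the reference of the sensory receptor genes (13.4 TPM). Of 18 biliary genes, 4 were at 10 TPM or more, including *Spp1* and the water channel *Aqp1* (41.1 TPM), while the keratins *Krt7* (2.85 TPM) and *Krt19* (0.728 TPM) were low.

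Endothelial genes were mixed. Of 20 vascular endothelial genes, 9 were at 10 TPM or more and 6 at 100 or more, but *Rspo3* and *Eng* are also in the stellate or receptor lists. Left were *Plvap*, a diaphragm protein of fenestrae (238 TPM), the junction protein *Esam* (213 TPM), *Egfl7* (205 TPM) and *Pecam1* (103 TPM). The endothelial cadherin *Cdh5* was at 9.11 TPM, *Tek* at 8.18 TPM and *Vwf* at 12.96 TPM, all under the 95th percentile of the sensory receptors. Of 19 sinusoidal endothelial genes, 8 were above that percentile, with the Fc receptor *Fcgr2b* at 143 TPM, *Clec1b* at 59.4 TPM, *Stab1* at 55.5 TPM and *Bmp2* at 50.2 TPM, while *Stab2* was at 5.48 TPM and *Lyve1* at 0.863 TPM. The part that endothelial cells had in the genes they share with HSCs, such as *Gata4*, *Rspo3* and *Eng*, was not tested.

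**Figure D5:**
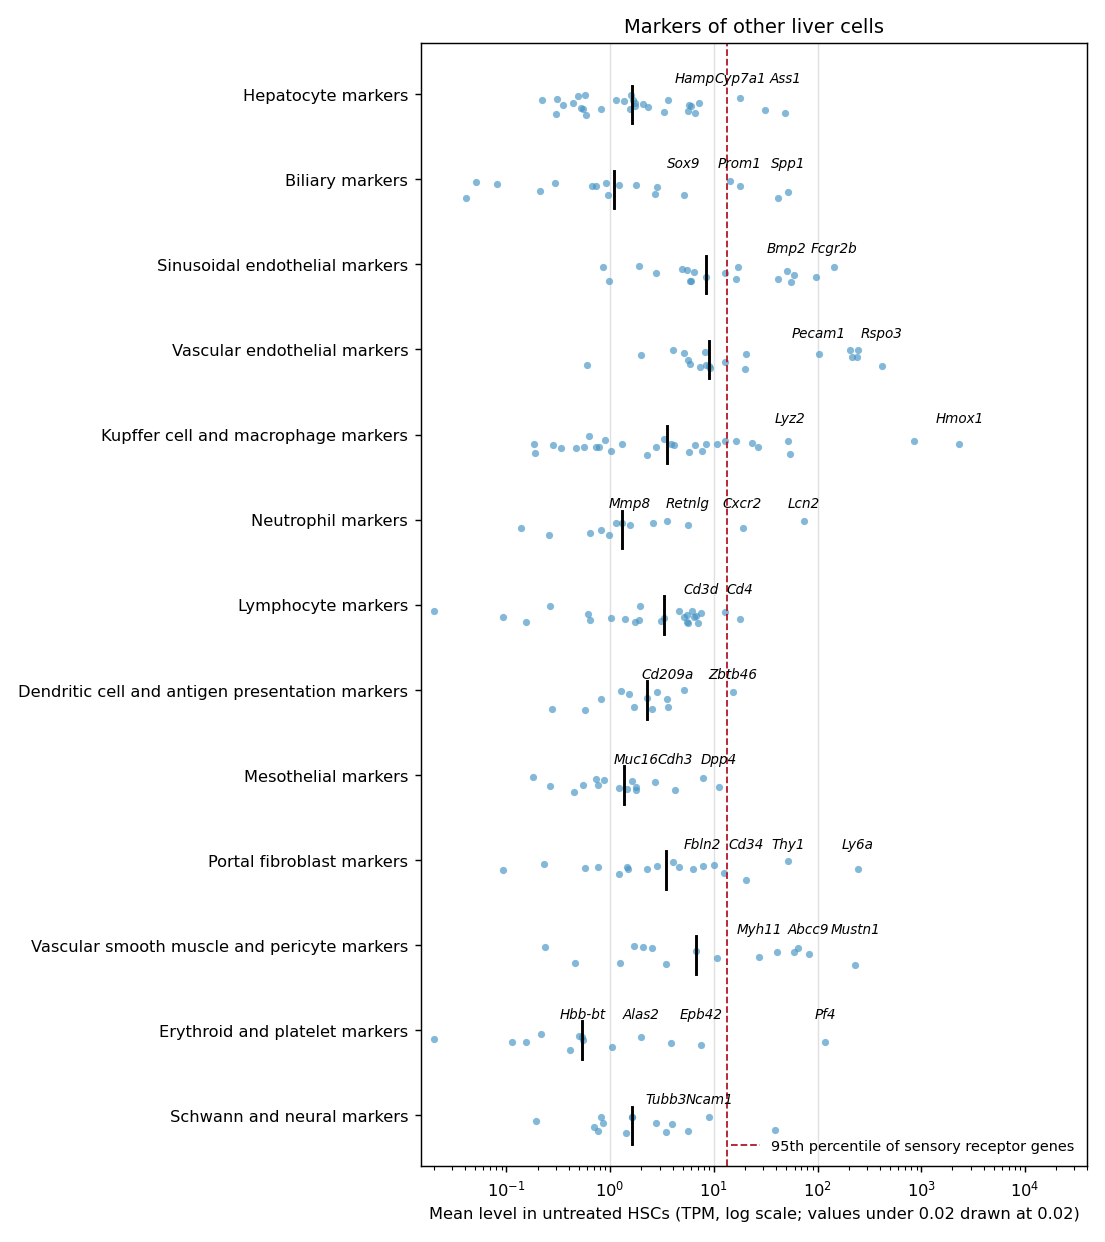
Level of each marker of 13 other cell types in untreated HSCs (x axis, TPM, log scale), 1 point per gene, with a black bar at the median of the list, a few members labelled and the dashed line at 13.4 TPM, the 95th percentile of the sensory receptor genes. Every median lies left of the line. The endothelial lists have the most members to its right, 8 each, against 7 in the macrophage list. Without genes that other kinds of list also hold, these are 5 vascular endothelial, 4 sinusoidal endothelial and 6 macrophage genes.

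Macrophage genes were led by genes that other cells also use. *Hmox1*, which is also in the stress list, and the iron exporter *Slc40a1* (847 TPM) were high, whereas the myeloid genes *Lyz2* (54.5 TPM), *Cd68* (52.1 TPM), *Ctss* (26.6 TPM) and *Fcer1g* (23.3 TPM) were lower. The defining Kupffer cell genes were near 0, with *Clec4f* at 0.186 TPM, *Cd5l* at 0.560 TPM, *Vsig4* at 0.466 TPM and *Timd4* at 1.30 TPM. Lymphocyte genes ranged from 0 to 17.9 TPM, the highest being *Cd4*, and *Ptprc* (CD45) was at 12.97 TPM. Of 13 neutrophil genes, *Lcn2* and the chemokine receptor *Cxcr2* (18.9 TPM) were at 10 TPM or more. Globin genes were at most 0.597 TPM. Of the platelet and erythroid list only *Pf4*, also counted among the chemokines, was at 10 TPM or more.

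Markers of neighbouring mesenchymal cells differed by list. Of 16 mesothelial genes, 1 was at 10 TPM or more and 0 were above the 95th percentile of the sensory receptors. In the portal fibroblast list 5 of 18 genes were at 10 TPM or more. *Ly6a* (245 TPM), *Thy1* (52.0 TPM) and *Cd34* (20.4 TPM) were above the percentile, while *Eln*, *Fbln2* (7.83 TPM) and *Col15a1* (0.573 TPM) were below. Of 15 smooth muscle and pericyte genes, 7 were at 10 TPM or more and 6 above that percentile, some of them also in the stellate or contractile lists. They were led by *Mustn1* (230.1 TPM), *Abcc9*, *Smtn* (64.7 TPM) and the potassium channel *Kcnj8* (59.4 TPM). Of 14 genes of Schwann cells and neurons, 1 was at 10 TPM or more, and the list had a median of 1.62 TPM.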

How the data were processed

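RNA of untreated HSCs was amplified with the SMART-Seq HT PLUS kit and sequenced as paired ends. The authors mapped the reads to GRCm38 and normalized them with RaNA-seq. The aligner, counter, annotation release and versions were not given in the sources used here. Deposited TPM values are 1 mean per gene and condition, and the untreated column sums to 999986. The paper speaks of triplicate samples and the labels list 1 record. Of the values of 10 TPM or more, 88.0% become numbers of 4 decimals (tolerance 1e-06) when multiplied by 3, against 28.9% unmultiplied. Whether the samples came from separate isolations is not stated.

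The untreated column of the table that pairs it with FGF18 (31447 rows) was used. The table that pairs it with TGFβ1 has 31691 rows, and of 30595 symbols listed once in both, 0 had a different untreated level. Only the FGF18 table held 743 symbols, with untreated levels of at most 2.74 TPM. Only the TGFβ1 table held 988, at 0.896 TPM or less. The fold changes, their standard errors, statistics and p-values of the authors' comparisons, the mean over both conditions and the stimulated columns were not used. Rows were ranked by level and 53 repeated symbols kept as separate rows. Types and coordinates came from GENCODE M21 for 30610 rows and RefSeq for 158, and 679 rows (0.620% of TPM) stayed untyped. Levels were counted at minimums of 1, 10 and 100 TPM, and the counting steps were tested on simulated data. Shared sequence was searched with BLAST+ 2.17.0. Python 3.11.15, numpy 2.4.6, pandas 2.3.3 and matplotlib 3.10.9 were used.

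Some genes that the rule below takes are not reported here. The gene lists and members were chosen with earlier results of these data known. The genes named are the 30 most abundant, all stellate cell markers, up to 6 of the highest members of each other list at 10 TPM or more, the 6 highest and the 4 defining members of each list of other cells, and the FGF receptors, *Klb*, *Fgf18*, *Spp1*, *Cd44*, *Ccnd1* and the TGFβ genes. Named outside this rule, after their values were seen, were *Olfr1032*, *AC109138.7*, *Clcf1*, *Tagln*, *Mylk*, *Myl9*, *Vim*, *Lmod1*, *Stra6*, *Rbp4*, *Fos*, *Mki67*, *Nqo1*, *Gclm*, *Srxn1*, *Txnrd1*, *Mt1*, *Mt2*, *Col1a1*, *Fn1*, *Postn*, *Mgp*, *P4ha2*, *P3h1*, *Loxl2*, *Lox*, *Timp1*, *Gdf2*, *Il6*, *Il1b*, *Tnf*, *Ednra*, *Itgav* and *Col15a1*, and the genes of the closing observations.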

Additional observations from a re-analysis of the deposited data

How the results depend on the processing

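A few counts depended on the level taken as present. Moving the minimum from 1 to 10 TPM left 9665 genes in place of 21084. Moving it from 10 to 100 TPM left 13 in place of 28 stellate cell genes, 25 in place of 114 receptor genes and 12 in place of 51 markers of other cells. At 1 TPM, 218 receptor genes and 164 markers of other cells were counted. The share of all TPM was 10.1% for 10 genes and 59.2% for 1000, against 26.3% for 100. With the untreated column of the other table, with protein-coding genes only, without the mitochondrial genome or with repeated symbols summed, these results and the summed matrix level (17568 TPM) moved by less than 1.5 times. Levels of named genes moved by less than 1.5 times in each of these. The other column held the same values, and summing repeated symbols raised a level by at most 1.001 times. Keeping only protein-coding genes rescaled every level by 1.07, and leaving out the mitochondrial genome by 1.035. These settings could hardly move a level, so they are no test of the authors' processing. Leaving out a sample, another count model and the depth of each library need values per library. No paired analysis was possible because the table holds 1 mean per gene. Levels under about 13.4 TPM lie within the range of the sensory receptor genes.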

Other observations

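Further gene families, chosen after their values were seen, were abundant in the untreated HSCs. Of 50 proteasome subunit rows, 46 were at 10 TPM or more, and they held 1.06% of all TPM, with *Psma3*, a subunit of the core particle, at 894 TPM. Of 88 nuclear genes of the respiratory chain, 80 were at 10 TPM or more, with 2.79% of the total and the ATP synthase subunit *Atp5b* at 1161 TPM. The 104 protein-coding rows picked by ribosomal protein symbols held 6.40%, and these can include copies and other genes with a like symbol. Of 23 glutathione transferase rows, 16 were at 10 TPM or more, and *Gstm2* was at 843 TPM. The 7 *Ifitm* rows summed to 5031 TPM, while the interferon-induced *Isg15* was at 61.7 TPM and *Mx1* at 9.20 TPM.

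Of 100 cytochrome P450 rows, 12 were at 10 TPM or more and 1 dominated. *Cyp1a1*, the xenobiotic-metabolizing enzyme that the aryl hydrocarbon receptor induces, was listed at 1044 TPM. Of other genes known to follow that receptor, *Nqo1*, also in the stress list, was at 886 TPM, with *Tiparp* at 47.1 TPM, *Cyp1b1* at 41.8 TPM and *Ahrr* at 7.53 TPM, beside 26.8 TPM for the receptor gene *Ahr*. *Apoe*, a lipid carrier made by hepatocytes, macrophages and HSCs, was at 2089 TPM, the 35th row, whereas the hepatocyte apolipoprotein *Apob* was at 1.72 TPM. *Anxa1*, an annexin that limits inflammation, was at 1301 TPM and the galectin *Lgals1* at 1393 TPM.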
